A study of Homo sapiens with 4 samples.

Results

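The transcription factors of the epidermal lineage were followed in HaCaT cells, a spontaneously immortalised line of human keratinocytes, after knockdown of the m6A demethylase ALKBH5. The group holds 10 of the 58735 genes listed in the deposited tables and was chosen by name, from what these factors are known to do in stratified epithelium, by a rule that uses no measured value but was set with earlier results of these data known: TP63, GRHL1, GRHL2, GRHL3, KLF4, KLF5, OVOL1, ZNF750, TFAP2A and TFAP2C. The series has 4 libraries of poly-A RNA, all from wild-type HaCaT cells: 2 after transfection with a negative control siRNA (siControl) and 2 after transfection with siRNA against ALKBH5 (siALKBH5). The study sought transcripts that respond to ALKBH5 loss in keratinocytes, in which it followed migration and wound closure. HaCaT is a single established line, the siRNA sequence behind the sequenced cells and the time of harvest are not given in the sources used here, and nothing in the labels says whether the duplicates came from separate cultures, so that the p-values then measure only the spread between these libraries.

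Epidermis renews itself from a basal layer whose cells divide, leave the basement membrane and differentiate into a cornified barrier. p63, encoded by TP63, is the master regulator that commits cells to this lineage and keeps the basal layer able to renew; the AP-2 factors TFAP2A and TFAP2C act beside it at epidermal enhancers. The Grainyhead-like factors GRHL1, GRHL2 and GRHL3 drive genes of junctions and of the barrier, KLF5 is typical of dividing basal cells, KLF4 and ZNF750 promote terminal differentiation, and OVOL1 restrains proliferation as cells leave the basal state.

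The libraries held between 16017502 and 18837807 counts on genes, with TMM factors between 0.992 and 1.01, a mitochondrial share of 10.2% in both siControl libraries and of 9.63% and 9.64% in the siALKBH5 libraries. ALKBH5 had 1512 and 1576 counts in siControl against 956 and 816 in siALKBH5, and its level fell to 55.5% of that in siControl (log2 fold change -0.85 ± 0.05 SE, adjusted p = 6.45e-15 in edgeR's quasi-likelihood test). The line expressed its keratinocyte markers: the 9 genes of that list summed to 18236 to 18646 CPM (counts scaled to a common library size with TMM) in siControl and to 24503 to 24607 CPM in siALKBH5, with 7 higher and 1 lower. The 5 simple epithelial markers, 4 keratins and EPCAM, summed to between 8518 and 9020 CPM over the 4 libraries, with 2 higher (KRT8 and KRT18) and 2 lower (KRT7 and KRT19). Markers of other cell types were scarce. The 6 fibroblast markers summed to 21.9 to 22.8 CPM in siControl and to 18.7 to 19.1 CPM in siALKBH5 with COL1A2 and PDGFRA at 0, the 3 endothelial markers to 32.5 to 35.5 CPM over all libraries, the 4 melanocyte markers to 2.72 to 3.89 CPM with TYR at 0, and the 3 leukocyte markers to 0.122 to 0.333 CPM. Of the 3 fibroblast markers tested, DCN (log2 fold change -1.25, adjusted p = 4.96e-04) and LUM (-1.08, adjusted p = 0.0209) fell, and COL1A1, which carried the sum, did not pass the test. The endothelial sum came from VWF, which rose (0.51, adjusted p = 2.08e-05), and CDH5, which fell (-0.69, adjusted p = 4.97e-05), while PECAM1 had 1 count in all. The part of these genes in the results was not tested.

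All 10 factors were detected in every library and all passed the expression filter, which kept 15075 genes. Their levels per length, given here as FPKM recomputed from the counts with the listed gene length, spanned more than 2 orders of magnitude. KLF5 stood highest with 122 and 120.3 FPKM in siControl and 109.6 and 107.6 FPKM in siALKBH5, and 304 of the genes tested had a higher mean level. TP63 followed at 36.2 and 37.5 FPKM in siControl and 34.9 and 34.2 FPKM in siALKBH5. TFAP2C (18.1 to 19.7 FPKM over the 4 libraries) and GRHL2 (16.3 to 18.1 FPKM) came next, and their ranges touched. OVOL1 (8.76 to 11.3 FPKM), TFAP2A (8.91 to 9.47 FPKM) and GRHL3 (7.34 to 8.97 FPKM) formed a further tier in which each range overlapped its neighbour. In siControl alone TFAP2A stood above OVOL1, and in siALKBH5 OVOL1 stood above TFAP2A. GRHL1 (1.94 to 2.31 FPKM) lay just above KLF4 (1.73 to 1.90 FPKM) without overlap. ZNF750 was the least abundant at 0.117 to 0.461 FPKM, below 91.2% of the genes tested. Ordered by CPM without the length, GRHL2, TFAP2A, TFAP2C and OVOL1 changed places, since the listed lengths run from 3005 bases for TFAP2C to 8274 bases for TFAP2A.

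**Figure D1:**
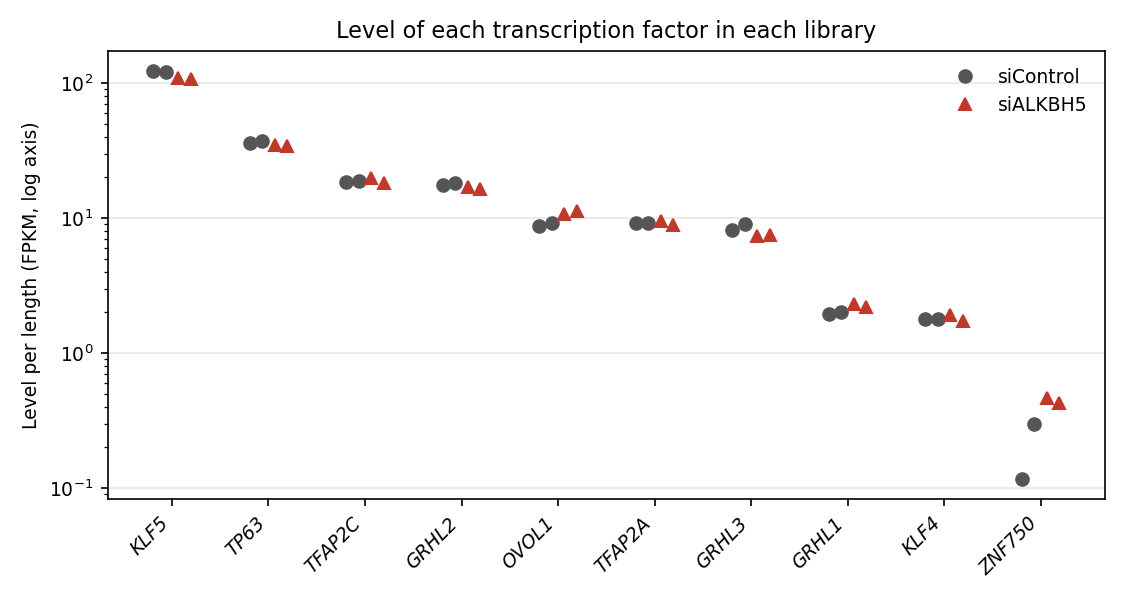
Level per length (FPKM, log axis) of each factor in the 2 siControl libraries (circles) and the 2 siALKBH5 libraries (triangles), 1 point per library, ordered by the mean of all 4. KLF5 sits above 100 FPKM in every library and ZNF750 below 0.5 FPKM in every library, while the points of TFAP2C and GRHL2 and those of OVOL1, TFAP2A and GRHL3 overlap.

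Under ALKBH5 knockdown, KLF5, TP63, GRHL2 and GRHL3 fell and OVOL1 and ZNF750 rose at an adjusted p under 0.05, while GRHL1, KLF4, TFAP2A and TFAP2C did not pass the test. Thus 6 of the 10 factors passed, against 36.6% of all genes tested. The count was 2 of 10 in DESeq2, against 25.6% of the genes with an adjusted p there. It was 3 of 10 without siALKBH5 replicate 1, 2 without siALKBH5 replicate 2, 4 without siControl replicate 1 and 3 without siControl replicate 2, against 27.7% to 29.3% of all genes tested in these fits. The 2 higher factors compare with a background of 19.3% of genes higher, and the 4 lower ones with 17.3% of genes lower. The changes were small: the median size of the log2 fold change over the 10 factors was 0.13, against 0.20 over all genes tested, and only ZNF750 reached the study's thresholds of an adjusted p under 0.05 and a change of at least 2-fold, which 2.92% of the genes tested reached. In 7 of the 10 the libraries of the groups did not overlap in CPM, against 66.3% of all genes tested. With 2 libraries per group an exact permutation test cannot give a two-sided p below 0.333, so the adjusted p-values depend on how edgeR pools the spread of all genes. That pooled spread was small: edgeR put the common coefficient of variation between libraries of a group at 0.0253. The labels do not say whether this is the spread of separate cultures, so the adjusted p-values need not measure reproducibility between cultures. In bulk RNA, fewer cells of a state and less RNA per cell cannot be told apart.

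**Figure D2:**
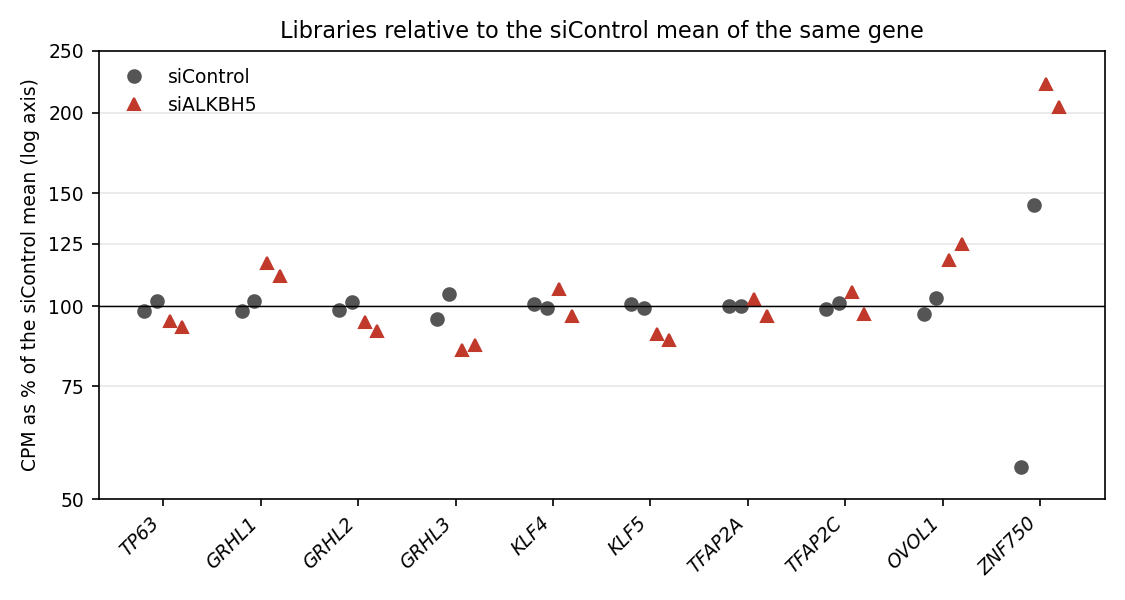
CPM of each library as a percentage of the siControl mean of the same gene (log axis), circles for siControl and triangles for siALKBH5, 1 point per library. The siALKBH5 libraries lie under both siControl libraries for TP63, GRHL2, GRHL3 and KLF5 and above both for GRHL1, OVOL1 and ZNF750, and the siControl libraries of ZNF750 are themselves far apart.

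KLF5, a zinc-finger factor of the Krüppel-like family, had 7679 and 8429 counts in siControl against 7969 and 6892 in siALKBH5, or 477 and 468 CPM against 427 and 419 CPM. Both siALKBH5 libraries lay under both siControl libraries by more than the spread within either group. The level went from 473 ± 5.73 CPM to 423 ± 5.56 CPM (SD, n = 2 each) and thus fell by 10.5%, with a log2 fold change of -0.16 (95% interval -0.21 to -0.11, adjusted p = 3.24e-06 in edgeR). KLF5 passed the test in all 10 alternative settings. KLF4, which maintains barrier genes in suprabasal cells, gave 6.58 and 6.50 CPM in siControl and 6.96 and 6.32 CPM in siALKBH5. These groups overlapped, and the log2 fold change of 0.025 had a 95% interval from -0.30 to 0.35, wider than the changes of KLF5 and OVOL1. KLF5 exceeded KLF4 per length by 68.1 and 67.7 times in siControl and by 57.6 and 62.3 times in siALKBH5. KLF4 therefore made up between 1.45% and 1.71% of the summed level per length of the pair.

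KLF5 lies on chr13:73054976-73077542 of GRCh38, plus strand, and KLF4 on chr9:107484852-107490482, minus strand. RefSeq promoter windows (GRCh38.p14, 250 bases before to 50 bases after an annotated start) were found for 6 of the factors, with 9 windows in all. The 2 windows of KLF5 and the single one of KLF4 are shown because the same family motif is spread unevenly over them. Capitals mark matches, on either strand, to the GC-box motif GGGNGNGGC bound by Krüppel-like factors or to the AP-2 motif GCCNNNGGC, which can overlap each other.
KLF5 window 1, chr13:73054726-73055025, plus strand: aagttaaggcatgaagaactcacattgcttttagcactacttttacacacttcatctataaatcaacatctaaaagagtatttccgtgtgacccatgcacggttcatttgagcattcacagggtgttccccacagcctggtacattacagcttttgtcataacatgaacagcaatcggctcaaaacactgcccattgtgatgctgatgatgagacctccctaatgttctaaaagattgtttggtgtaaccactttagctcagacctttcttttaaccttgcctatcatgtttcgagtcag
KLF5 window 2, chr13:73058755-73059054, plus strand: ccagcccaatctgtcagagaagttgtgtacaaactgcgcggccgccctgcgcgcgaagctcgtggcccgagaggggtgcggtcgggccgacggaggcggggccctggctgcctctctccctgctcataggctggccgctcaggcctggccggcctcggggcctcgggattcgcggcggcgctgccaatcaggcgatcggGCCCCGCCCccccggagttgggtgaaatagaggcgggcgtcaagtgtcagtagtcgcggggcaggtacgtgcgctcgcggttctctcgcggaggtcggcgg
KLF4, chr9:107489720-107490019, minus strand: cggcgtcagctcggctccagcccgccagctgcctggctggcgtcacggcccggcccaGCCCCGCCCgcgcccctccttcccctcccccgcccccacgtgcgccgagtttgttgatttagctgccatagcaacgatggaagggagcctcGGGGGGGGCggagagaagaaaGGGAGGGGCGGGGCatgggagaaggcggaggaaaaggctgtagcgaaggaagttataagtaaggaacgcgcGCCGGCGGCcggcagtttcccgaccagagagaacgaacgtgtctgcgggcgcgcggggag
The upstream KLF5 window was AT-rich, with a GC content of 40.7% and 4 CpG dinucleotides, and held no match. The downstream KLF5 window had a GC content of 71.3%, 37 CpG dinucleotides and 1 GC-box match, and the KLF4 window had 69.0% GC, 33 CpG dinucleotides, 4 GC-box matches, some of which overlap, and 1 AP-2 match. Over all 35116 windows the median GC content was 58.7% with 14 CpG dinucleotides, 30.6% of windows held the GC-box motif and 23.2% the AP-2 motif. A match is a description of the letters, and the counts do not tell from which start the KLF5 reads came.

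TP63 lies on chr3:189631416-189897279, plus strand. It had 4344 and 5028 counts in siControl against 4864 and 4197 in siALKBH5, or 269.6 and 279 CPM against 260.4 and 255 CPM. The siALKBH5 libraries lay under both siControl libraries, but the gap between the groups was about as wide as the distance between the siControl libraries. TP63 fell by 6.12%, from 275 ± 6.96 to 258 ± 3.81 CPM (SD, n = 2 each), with a log2 fold change of -0.09 (95% interval -0.15 to -0.03, adjusted p = 0.0154 in edgeR). The call was lost without siControl replicate 2 (adjusted p = 0.213), without siALKBH5 replicate 2 (adjusted p = 0.121) and in DESeq2 (adjusted p = 0.0924). The gene counts sum over all isoforms, so TAp63 and the ΔNp63 form of basal keratinocytes cannot be told apart. TP73, the nearest paralog of TP63, went the other way in the same libraries, with 129 and 126 counts in siControl against 288 and 254 in siALKBH5 (log2 fold change 1.04, adjusted p = 4.97e-08 in edgeR). Per length TP63 was 30.6 and 36.2 times as abundant as TP73 in siControl and 15.3 and 15.0 times as abundant in siALKBH5, and the share of TP73 in the pair went from 2.93% to 6.19% on average.

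Neither AP-2 gene passed the test. TFAP2A (chr6:10393186-10419659, minus strand) gave 76.3 and 76.4 CPM in siControl and 78.3 and 73.7 CPM in siALKBH5, with a log2 fold change of -0.0041 (95% interval -0.10 to 0.096, adjusted p = 0.961 in edgeR). TFAP2C (chr20:56629302-56639283, plus strand), the paralog that guides surface ectoderm toward keratinocytes, gave 55.5 and 56.7 CPM in siControl and 59.1 and 54.5 CPM in siALKBH5, with a log2 fold change of 0.019 (95% interval -0.099 to 0.14, adjusted p = 0.844 in edgeR). In both genes the siControl libraries fell between the siALKBH5 libraries, and the sign of the estimate turned under some settings. TFAP2C made up 66.7% and 67.2% of the pair per length in siControl and 67.5% and 67.1% in siALKBH5, so that the balance between the paralogs moved by less than the spread between libraries. The antisense genes TFAP2A-AS1 and TFAP2A-AS2 share 5.29% and 11.4% of the exonic bases of TFAP2A and had at most 21 counts in any library.

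Of the Grainyhead-like genes, GRHL2 and GRHL3 fell and GRHL1 lay higher in both siALKBH5 libraries without passing the test. GRHL2, the main regulator of epithelial cadherin and claudin genes, had 1726 and 1978 counts in siControl against 1912 and 1630 in siALKBH5, or 107 and 109.9 CPM against 102 and 99.0 CPM. The groups did not overlap. The change of -0.11 on the log2 scale (95% interval -0.19 to -0.022, adjusted p = 0.0439 in edgeR) stood close to the threshold and was lost whenever any 1 of the 4 libraries was left out (adjusted p between 0.0591 and 0.262), in DESeq2 (0.208) and without the expression filter (0.101). GRHL3, which promotes the barrier and wound closure in skin, had 521 and 636 counts in siControl against 540 and 484 in siALKBH5, or 32.3 and 35.3 CPM against 28.9 and 29.4 CPM. Both siALKBH5 libraries lay under both siControl libraries, by more than the distance between the siALKBH5 libraries and by about that between the siControl libraries. GRHL3 fell by 13.8% (log2 fold change -0.22, 95% interval -0.37 to -0.063, adjusted p = 0.0235 in edgeR). That call held without siControl replicate 1 (adjusted p = 0.0172), and was lost without siControl replicate 2 (0.265), siALKBH5 replicate 1 (0.107) or siALKBH5 replicate 2 (0.0534) and in DESeq2 (0.139).

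GRHL1, an activator of desmosomal cadherin genes, had 249 and 288 counts in siControl against 343 and 288 in siALKBH5, or 15.5 and 16.0 CPM against 18.4 and 17.5 CPM. The groups did not overlap, but the log2 fold change of 0.19 (95% interval -0.020 to 0.40, adjusted p = 0.155 in edgeR) did not pass the test in any setting. Within the family, GRHL2 held between 62.3% and 63.6% of the summed level per length in all 4 libraries. The share of GRHL1 was 6.98% and 6.91% in siControl and 8.70% and 8.46% in siALKBH5, and that of GRHL3 was 29.5% and 30.8% in siControl and 27.6% and 28.7% in siALKBH5. GRHL3 exceeded GRHL1 per length by 4.22 and 4.46 times in siControl and by 3.18 and 3.39 times in siALKBH5, ratios that did not overlap between the groups and that were not tested.

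GRHL3 lies on chr1:24319322-24364482, plus strand, and RefSeq gives it 2 promoter windows on GRCh38.p14, shown because its estimated decrease was the largest of the 10 factors. Capitals mark the only match in them, to the AP-2 motif GCCNNNGGC. The Grainyhead motif AACCNGTT, present in 1.73% of all windows, the GC-box motif GGGNGNGGC and the OVOL motif CCGTTA, present in 3.07% of all windows, were searched on both strands and had no match there.
GRHL3 window 1, chr1:24319107-24319406, plus strand: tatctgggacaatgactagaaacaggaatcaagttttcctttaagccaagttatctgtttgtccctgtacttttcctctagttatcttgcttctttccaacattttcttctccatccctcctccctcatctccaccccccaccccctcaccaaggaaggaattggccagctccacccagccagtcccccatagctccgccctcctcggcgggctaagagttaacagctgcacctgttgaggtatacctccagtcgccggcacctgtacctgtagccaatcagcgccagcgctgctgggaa
GRHL3 window 2, chr1:24322790-24323089, plus strand: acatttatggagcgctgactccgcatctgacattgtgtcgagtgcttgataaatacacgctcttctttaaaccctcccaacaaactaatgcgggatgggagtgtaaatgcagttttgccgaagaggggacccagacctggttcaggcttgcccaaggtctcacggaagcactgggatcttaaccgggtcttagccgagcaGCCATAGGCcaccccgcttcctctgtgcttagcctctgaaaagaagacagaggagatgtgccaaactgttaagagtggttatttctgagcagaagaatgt
Both windows lay below the median GC content given above, with 7 and 10 CpG dinucleotides. The absence of a match says only that these letters are not in the window. STPG1, a protein-coding gene on the opposite strand over the GRHL3 locus, shares no exonic base with GRHL3. STPG1 had 191 and 257 counts in siControl against 303 and 289 in siALKBH5 (log2 fold change 0.36, adjusted p = 0.0124 in edgeR), the opposite direction to GRHL3.

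OVOL1, a zinc-finger repressor, was the clearest factor to rise. It had 543 and 641 counts in siControl against 764 and 713 in siALKBH5, or 33.7 and 35.6 CPM against 40.9 and 43.3 CPM. Both siALKBH5 libraries lay above both siControl libraries, with a gap wider than the spread within either group. The level rose by 21.5%, from 34.7 ± 1.36 to 42.1 ± 1.71 CPM (SD, n = 2 each), with a log2 fold change of 0.28 (95% interval 0.14 to 0.42, adjusted p = 0.00178 in edgeR), and it passed the test in all 10 alternative settings. Its paralog OVOL2, which holds epithelial cells in their state, fell in the same libraries with 722 and 719 counts in siControl against 602 and 575 in siALKBH5 (log2 fold change -0.34, adjusted p = 4.15e-04 in edgeR; named after its values were seen). Per length, OVOL1 stood at 0.425 and 0.504 of the level of OVOL2 in siControl and at 0.717 and 0.701 in siALKBH5. OVOL1 lies on chr11:65787022-65797219, plus strand. The antisense gene AP001266.1 covers 27.1% of the exonic bases of OVOL1 and had no count. All 1044 exonic bases of AP001266.1 lie within exons of OVOL1. As the strand setting of the counting is not given, the lack of counts does not show whether AP001266.1 was transcribed. A part of AP001266.1 in the level of OVOL1 was not tested. OVOL1-AS1 had between 10 and 17 counts and shares no exonic base with OVOL1.

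ZNF750, an effector of p63 in late differentiation, was rare. It had 7 and 20 counts in siControl against 32 and 26 in siALKBH5, or 0.434 and 1.11 CPM against 1.71 and 1.58 CPM. The groups did not overlap, yet the siControl libraries differed from each other by more than siControl replicate 2 differed from either siALKBH5 library. The exact 95% Poisson intervals, which cover counting error only, ran from 2.81 to 14.4 for the 7 counts and from 12.2 to 30.9 for the 20 counts, and the latter reached above 26. The log2 fold change was 1.06 (95% interval 0.21 to 1.91, adjusted p = 0.0426 in edgeR). It was 0.57 without siControl replicate 1 (adjusted p = 0.405) and 1.91 without siControl replicate 2 (adjusted p = 0.0110), and the call was also lost without siALKBH5 replicate 1 (0.173) or replicate 2 (0.0960), in DESeq2 (0.173) and with library size as the only scaling (0.0504).

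ZNF750 lies on chr17:82829435-82840578, minus strand, inside the span of TBCD, a tubulin-folding cofactor on the plus strand, and shares no exonic base with it. TBCD had 1093 and 1419 counts in siControl against 2031 and 1791 in siALKBH5 (log2 fold change 0.56, adjusted p = 5.92e-11 in edgeR). The library protocol describes no strand-marking step, and the strand setting of the counting is not given. If the strands were not kept apart, reads from unspliced TBCD RNA over the ZNF750 exons could not be told from reads of ZNF750. The counts of ZNF750 amounted to 0.640% and 1.41% of those of TBCD in siControl and to 1.58% and 1.45% in siALKBH5, so that siControl replicate 1 stood apart and the other 3 libraries lay close together. Whether TBCD has a part in the ZNF750 counts was not tested.

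**Figure D3:**
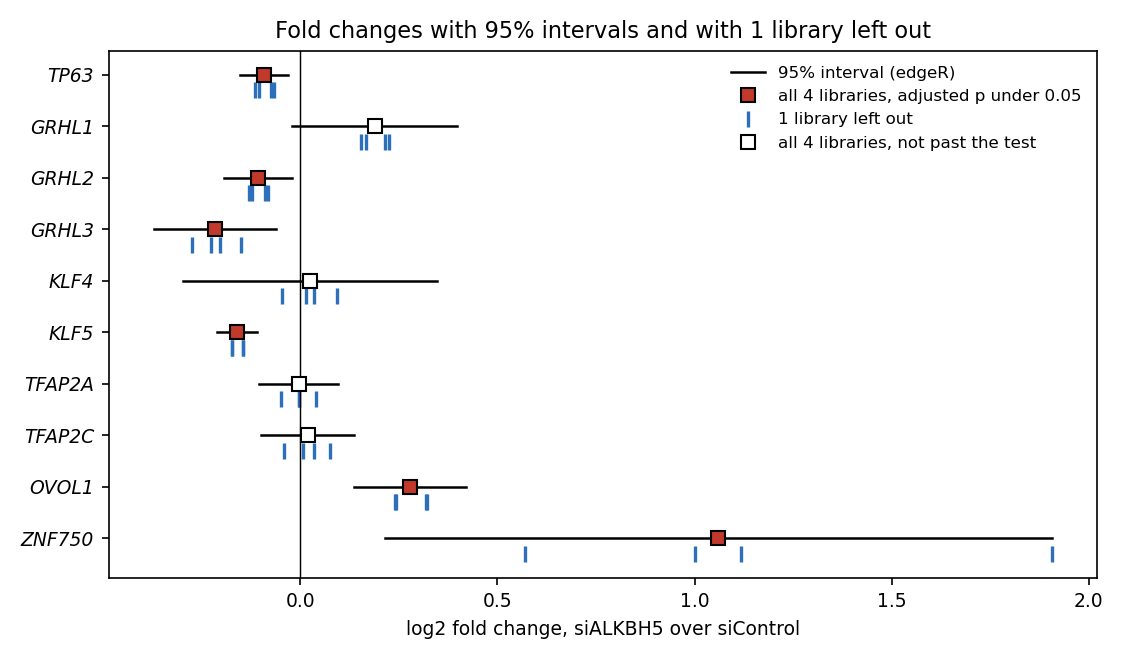
Log2 fold change of siALKBH5 over siControl for each factor, with squares for the fit on all 4 libraries (filled where the adjusted p was under 0.05), lines for the 95% interval and blue ticks for the 4 fits that each leave out 1 library. KLF5, TP63, GRHL2, GRHL3, OVOL1 and ZNF750 have intervals and ticks clear of 0. The ticks of KLF4, TFAP2A and TFAP2C lie on both sides of 0, and those of ZNF750 spread from 0.57 to 1.91.

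ALKBH5 removes m6A from mRNA, and GGACT is a common core of m6A sites. GGACT was counted in the annotated coding transcript of each gene with the longest coding sequence (GENCODE 29, GRCh38). GGACT occurred in all 10 transcripts, as in 91.3% of 12499 protein-coding genes tested, for which the median was 3 matches or 0.945 per kilobase. TFAP2A (6 matches, 1.80 per kilobase), KLF4 (4 matches, 1.42 per kilobase) and TFAP2C (4 matches, 1.40 per kilobase) had the highest densities. TP63 had 6 matches (1.22 per kilobase), GRHL2 6 (1.15 per kilobase) and OVOL1 3 (0.989 per kilobase). The TP63 transcript was chosen by coding length and need not be the isoform these cells express. GRHL1 and KLF5 had 2 each (0.561 per kilobase for both), GRHL3 had 1 (0.472 per kilobase) and ZNF750 had 1 (0.269 per kilobase). The GRHL3 transcript, also chosen by coding length, had a 3′ untranslated region of only 111 bases, against a median of 972. Its count may thus miss matches in longer transcripts of the gene. A match is not a methylated site, and no methylation data were analysed here. Whether the matches bear on the changes was not tested.

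The match nearest to the stop codon is shown for the factors with the firmest change in each direction and for TP63, with GGACT in capitals and 8 bases on each side.
KLF5, across an exon junction between chr13:73063864 and chr13:73075708, plus strand: tcacctgaGGACTcacactgg
OVOL1, chr11:65795446-65795466, plus strand: agtgatcaGGACTggagcccc
TP63, chr3:189890814-189890834, plus strand: tcatgtctGGACTatttcacg
In KLF5 the site begins 191 bases before the end of the stop codon, in the coding sequence. In OVOL1 all 3 matches lie in the 3′ untranslated region and the nearest begins 112 bases after the stop codon, while in TP63 the nearest begins 358 bases before the end of the stop codon.

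Other transcription factors of the epidermis moved in both directions. Of 25 listed, 23 were tested, 9 were higher and 6 were lower (65.2% in all, against 36.6% of all genes tested), with a median log2 fold change of 0.039 against -0.0081 over all genes tested. The largest changes at a mean of at least 1 CPM were those of TP73, described above, of MAF, a factor of late differentiation (log2 fold change -0.65, adjusted p = 3.57e-06 in edgeR), of SOX9, typical of hair follicle and wound keratinocytes (0.62, adjusted p = 2.25e-06), and of DLX5, a homeobox gene (0.42, adjusted p = 9.03e-04). EHF and RUNX1, the most abundant that did not pass, had log2 fold changes of 0.017 and 0.039. GATA3 was lower at -0.16 (adjusted p = 0.0297) and was named after its values were seen.

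Genes whose products act on or with the factors were described next. Of 22 cofactors and regulators 21 were tested, 5 were higher and 4 were lower, with a median of 0.047. Those past the test made up 42.9%, near the 36.6% of all genes tested. The demethylase of histone H3 KDM1A, which represses epithelial differentiation genes and is a known partner of ZNF750, rose from 443 to 728 CPM (log2 fold change 0.72, adjusted p = 1.37e-22 in edgeR). KMT2D, an H3K4 methyltransferase that acts with p63 at enhancers, rose by 0.33 on the log2 scale (adjusted p = 1.74e-07), and SMARCA4, an ATPase of the BAF remodelling complex, rose by 0.24 (adjusted p = 3.34e-05). FBXW7, a ubiquitin ligase subunit that targets KLF5 and p63 isoforms, fell by 0.40 (adjusted p = 0.00754). PPP1R13L, a p63 target, and KCTD1, a repressor of AP-2 activity, were the most abundant that did not pass, at 0.047 and -0.011.

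Downstream genes did not follow a single direction. Of 21 basal genes linked to p63, all were tested, 9 were higher and 6 lower, with a median of -0.0083. Those past the test made up 71.4%, against 36.6% of all genes tested. KRT5, the basal keratin, rose from 7034 to 11248 CPM (log2 fold change 0.68, adjusted p = 1.45e-27 in edgeR) and CLCA2 rose by 0.30 on the log2 scale (adjusted p = 2.52e-07), whereas KRT15, a keratin of quiescent basal cells, fell by 0.48 (adjusted p = 3.43e-26). LAMB3 and COL17A1, at -0.029 and 0.018, did not pass the test. Of 11 epithelial genes linked to the Grainyhead-like factors, 10 were tested, 3 were higher and 0 lower in edgeR, a share below the 36.6% of all genes tested, with a median of 0.084. At an unadjusted p under 0.05, 1 was lower in edgeR and 0 in DESeq2. The higher genes were ESRP1, a splicing regulator of epithelia (0.18, adjusted p = 1.34e-05), RAB25 (0.16, adjusted p = 6.71e-05) and the tight junction gene CLDN4 (0.13, adjusted p = 0.0192), while CDH1 at -0.064 (adjusted p = 0.0515) and CLDN7 at 0.071 did not pass.

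Of 25 late differentiation genes, 15 were tested, 4 were higher and 5 lower (60% in all, against 36.6% of all genes tested), with a median of 0.097. The highest log2 fold change was that of ALOX12B at 2.75 (adjusted p = 0.00119 in edgeR). ALOX12B was rare, with 4 and 1 counts in siControl against 17 and 19 in siALKBH5. PPL and EVPL were also higher, by 0.23 and 0.11. These 3 genes were named after their values were seen. CNFN, a cornified envelope gene, fell by 1.08 on the log2 scale (adjusted p = 2.87e-05 in edgeR), and so did SPRR1B (-0.68, adjusted p = 2.49e-05), FLG, encoding filaggrin (-0.49, adjusted p = 2.22e-05), and IVL, encoding involucrin (-0.47, adjusted p = 2.08e-16). KRT1 rose by 0.27 (adjusted p = 1.18e-12) and KRT10, its usual partner, fell by 0.29 (adjusted p = 2.57e-10), both named after their values were seen. TGM1, a cross-linking enzyme that GRHL3 activates, and CASP14 did not pass the test, at 0.097 and -0.019.

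All 12 proliferation markers were higher in siALKBH5, against 19.3% of all genes tested, with a median log2 fold change of 0.79. They were led by MYBL2 (1.35, adjusted p = 3.37e-17 in edgeR), PLK1 (1.00, adjusted p = 1.56e-19), AURKB (0.96, adjusted p = 4.29e-15) and AURKA (0.96, adjusted p = 4.18e-18). MKI67 rose from 3143 and 3573 counts to 6805 and 6029 counts. The list summed to 1252 and 1260.4 CPM in siControl and to 2123 and 2117 CPM in siALKBH5, without overlap. These values moved with the groups in the same libraries in which KLF5 fell and OVOL1 rose, and their part in those changes was not tested. The study itself reported unaltered proliferation of HaCaT cells after ALKBH5 knockdown, by viability, EdU and flow cytometry assays. In mice lacking Alkbh5 it also saw no significant change in Ki67 staining of the wound-edge epidermis. Those assays measured cells or, for Ki67, protein in mouse tissue, and not the RNA of these markers in HaCaT cells. The difference was not tested here.

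**Figure D4:**
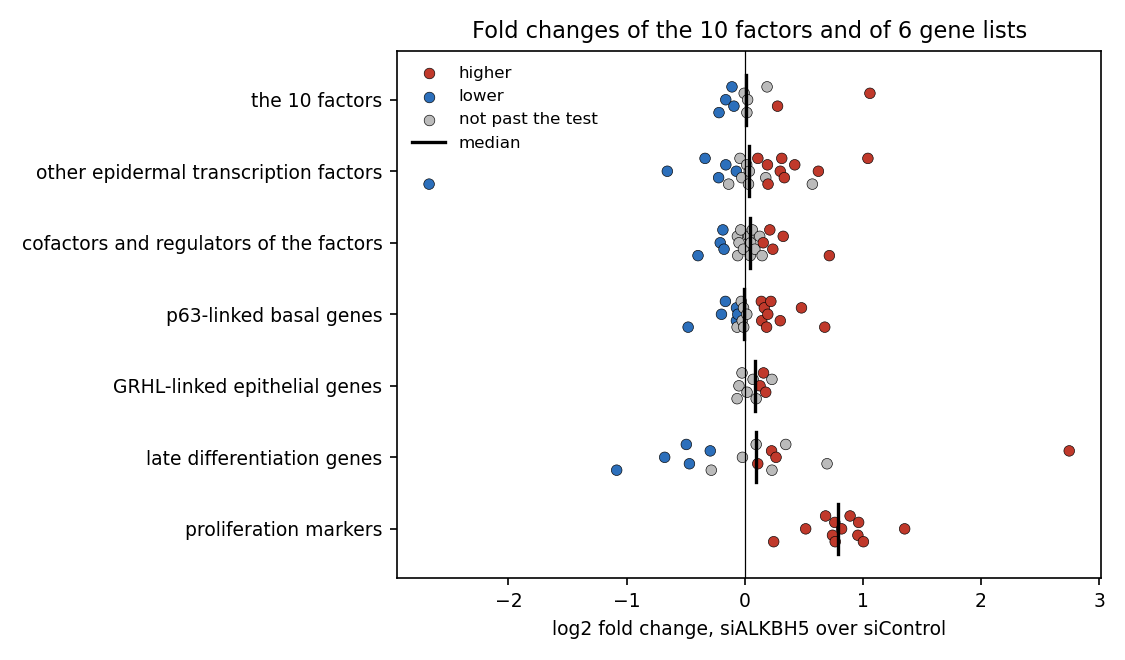
Log2 fold change of siALKBH5 over siControl for the genes tested among the 10 factors and in 6 gene lists, 1 point per gene, red where higher and blue where lower at an adjusted p under 0.05, grey otherwise, with the median as a black bar. The medians of the first 6 rows lie between -0.0083 and 0.097, and every gene of the proliferation list lies above 0.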

How the data were processed

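RNA-seq of poly-A RNA from HaCaT cells was analysed in 4 libraries, 2 siControl and 2 siALKBH5, grouped by their labels. The authors deposited, in 2 tables of 58735 genes, raw counts per gene and FPKM for 1 library of each group per table, together with log2 fold changes and p-values of their own comparison, which were not used. The submitters' processing notes name hg38, CASAVA, HISAT2 2.0.5, featureCounts 1.5.0-p3 and DESeq2 1.20.0, and a strand setting of the counting is not given in the sources used here. The FPKM the authors deposited may have been scaled within each table, which was not checked. FPKM were therefore recomputed from the deposited counts, the listed gene lengths and TMM-scaled library sizes.

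The quasi-likelihood test of edgeR 4.0.16 (R 4.3.3) was applied to the counts after filterByExpr and TMM, with no covariates and with Benjamini-Hochberg adjustment over 15075 genes. Passing the test means an adjusted p under 0.05. Standard errors and 95% intervals come from that model, and values after ± are SE where stated and SD otherwise. The 10 alternative settings were DESeq2 1.42.0, other scalings and filters, a block for the replicate number and the omission of each library. The steps were tested on simulated data. The changes planted there were larger than those of every factor but ZNF750, in genes with more counts than ZNF750 had. That test therefore does not cover the calls made for the factors. The factors and the gene lists were chosen with earlier results of these data known. Genes named from a list are the 4 past the test with the largest change at a mean of at least 1 CPM and the 2 most abundant that did not pass, and 1 gene under this rule is not reported here. Promoter windows are from RefSeq (GRCh38.p14) and transcripts from GENCODE 29. TGM1 and DSG1 are in 2 lists.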

Additional observations from a re-analysis of the deposited data

How the results depend on the processing

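KLF5 and OVOL1 passed the test in every one of the 10 alternative settings, and the direction of TP63, GRHL1, GRHL2, GRHL3 and ZNF750 held in all of them. In DESeq2 the log2 fold changes of TP63 (-0.087), GRHL2 (-0.10), GRHL3 (-0.21) and ZNF750 (1.08) were no longer past the threshold, which left 1 factor higher and 1 lower, against 25.6% of all genes with an adjusted p there, and 0 past the study's thresholds, also at an unadjusted p under 0.05, at which 4 factors and 35.2% of these genes passed in DESeq2. With library size as the only scaling ZNF750 (1.04) was lost, which left 1 factor higher and 0 past the study's thresholds, and TFAP2C turned to -0.0037. Without the filter GRHL2 (-0.10) was lost and TFAP2A turned to 0.0024. With 1 library left out, log2 fold changes ran from -0.11 to -0.065 for TP63, from -0.13 to -0.083 for GRHL2, from -0.28 to -0.15 for GRHL3, from 0.57 to 1.91 for ZNF750, from -0.047 to 0.092 for KLF4, from -0.048 to 0.040 for TFAP2A and from -0.041 to 0.076 for TFAP2C. The factors higher then numbered 1 to 2, those lower 1 to 3 and those past the study's thresholds 0 to 1. The cause of these differences was not tested.

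With the replicate block the same 6 factors passed and the genes past the test numbered 5922 in all, while the list linked to the Grainyhead-like factors went from 3 to 5 genes. The replicate number was not shown to pair the libraries: deviations of same-numbered libraries correlated at 0.042 across genes. By CPM without the length, 4 factors took another place in the order of levels, and with siControl means alone 2 did, a setting added after the data were seen. Depth limits ZNF750 most, with 7 to 32 counts a library.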

Other observations

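Further genes of the factors' families were looked up after the data had been seen. Of 16 other Krüppel-like genes, 10 were tested, 4 rose and 1 fell, against 19.3% of all genes tested higher and 17.3% lower. KLF2 rose, with 15 and 21 counts in siControl against 91 and 69 in siALKBH5 (log2 fold change 2.10, adjusted p = 2.01e-07 in edgeR's quasi-likelihood test), and KLF6 from 442 and 478 to 739 and 699 counts (0.60, adjusted p = 4.81e-08). KLF13 rose by 0.21 (adjusted p = 3.81e-05) and KLF7 by 0.23 (adjusted p = 6.83e-04) on the log2 scale. KLF3, a repressor of the family, fell from 150.4 to 124 CPM (log2 fold change -0.28, adjusted p = 2.81e-07). TFAP2B and TFAP2D were listed at 0 in all 4 libraries, and OVOL3 had 2 counts in one siControl library and none elsewhere.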
